A study of Mus musculus with 24 samples.

Results

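The 32 genes described here carry out and control sterol and fatty acid synthesis. They comprise 16 enzymes that convert acetyl-CoA to cholesterol, 5 regulators of the sterol regulatory element binding proteins (SREBPs), 8 enzymes that make, elongate or desaturate fatty acids, and 3 proteins that move sterols. They were taken as the genes whose symbol in the deposited tables equalled one of 32 fixed names, 32 of the 55487 genes listed. Expression was measured in 24 libraries of cultured mouse lymphoid progenitors (LPs) by QuantSeq, which counts sequence tags from the 3′ ends of mRNAs.

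All groups were derived from Cas9-LPs, cell lines grown from fetal liver of mice that lack Ebf1, a factor needed for B cell commitment, and that carry Cas9 knocked in at Rosa26. The cells were kept on mitomycin C treated OP9 stromal cells with SCF, Flt3L and IL-7, and were transduced with retroviruses carrying single guide RNAs (sgRNAs) and an hNGFR marker, with 3 pooled sgRNA vectors for each of *Cbfb*, *Ctcf* and *Med12*. The hNGFR+ CD45+ cells were sorted 5 days after transduction, so each library is a transduced population and not a clone. In experiment 1, sgControl (against luciferase) and sgCbfb cells were profiled as LPs and as Phase 1 cells, which had received 2 days of Notch stimulation on OP9 cells expressing DLL4. In experiment 2, LPs carried sgControl, sgCbfb, sgCTCF or sgMed12. *Cbfb* encodes the shared partner of the RUNX transcription factors, *Ctcf* a DNA-binding factor that organises chromatin loops, and *Med12* a subunit of the Mediator kinase module. Each of the 8 groups had 3 libraries.

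Cells make cholesterol from acetyl-CoA through mevalonate, farnesyl diphosphate, squalene and lanosterol. When membrane sterol is low, SCAP escorts SREBPs from the endoplasmic reticulum to the Golgi, where they are cleaved into transcription factors that switch on most of these enzymes, the SREBP-2 isoform acting mainly on sterol genes and SREBP-1 on fatty acid genes. When sterol is plentiful, INSIG proteins hold SCAP back and liver X receptors induce the efflux pumps ABCA1 and ABCG1. Proliferating lymphoid cells are known to rely on this pathway for new membrane.

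Promoter sequence is shown for 4 of the genes because SREBPs bind a sterol regulatory element next to NF-Y, which binds CCAAT boxes, in the promoters of sterol genes. The sequences are from RefSeq (GRCm38.p6) and run 5′ to 3′ on the coding strand, each ending before whichever of its RefSeq and GENCODE starts lies further upstream. Capitals mark the core of the sterol regulatory element, CACCCCA, and CCAAT boxes, which read ATTGG when they lie on the other strand. *Acat2* (chr17:12960748-12960975, minus strand) and *Hmgcs1* (chr13:119690101-119690350, plus strand) carried the core.
Acat2: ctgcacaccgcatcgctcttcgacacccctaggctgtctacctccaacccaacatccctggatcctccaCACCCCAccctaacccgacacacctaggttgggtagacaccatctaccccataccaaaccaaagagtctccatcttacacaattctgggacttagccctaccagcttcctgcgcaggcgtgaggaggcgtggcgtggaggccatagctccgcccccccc
Hmgcs1: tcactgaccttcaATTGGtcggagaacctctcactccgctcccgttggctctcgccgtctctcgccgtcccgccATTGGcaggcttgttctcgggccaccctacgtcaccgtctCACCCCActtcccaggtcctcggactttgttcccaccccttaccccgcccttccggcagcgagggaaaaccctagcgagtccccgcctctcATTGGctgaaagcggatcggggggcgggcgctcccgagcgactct
*Mvk* (chr5:114444019-114444268, plus strand) is shown for its 5 CCAAT boxes without a core, and *Srebf2* (chr15:82147019-82147180, plus strand) for a core beside a CCAAT box.
Mvk: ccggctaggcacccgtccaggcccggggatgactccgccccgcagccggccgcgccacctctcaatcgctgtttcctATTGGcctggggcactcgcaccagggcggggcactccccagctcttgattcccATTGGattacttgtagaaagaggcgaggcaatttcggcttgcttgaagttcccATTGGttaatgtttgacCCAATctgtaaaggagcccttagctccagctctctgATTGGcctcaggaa
Srebf2: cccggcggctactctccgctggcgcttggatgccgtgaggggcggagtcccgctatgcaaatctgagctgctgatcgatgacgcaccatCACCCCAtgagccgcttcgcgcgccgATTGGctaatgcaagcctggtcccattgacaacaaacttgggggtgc
A promoter window of 300 bases, from 250 before to 50 after the start, was held in the reference table for 24 of the 32 genes. CCAAT, searched on both strands, was in the windows of 18 of those 24 genes (75.0%), against 41.1% of all 27025 genes with a window, and in 12 of the 13 enzymes of cholesterol synthesis that had one. CACCCCA was in 3 of 24 (12.5%, *Acat2*, *Hmgcs1* and *Srebf2*) against 8.66% of all genes. The E-box CACGTG, which SREBPs can also bind, was in 6 of 24 (25.0%) against 8.09%, and TGTGGT, the RUNX core, in 3 of 24 (12.5%) against 18.9%. These are letter matches on both strands and are not measurements of binding.

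Values are counts scaled by depth (CPM), the reads of a gene per 1000000 reads on genes. Libraries held 1363263 to 1743319 reads in experiment 1 and 3354483 to 4326782 in experiment 2, so 3 reads correspond to 1.72 to 2.20 CPM and to 0.693 to 0.894 CPM. Tests used limma on log2(CPM + 1), over the 13239 genes of experiment 1 and 13177 of experiment 2 that reached 1 CPM in 3 or more libraries, and all 32 genes were among them. Fold changes are on that scale, which understates changes of low genes, and a gene is said to rise or fall where the Benjamini-Hochberg adjusted P value over all tested genes was below 0.05. *Cbfb* itself fell in sgCbfb LPs of experiment 1, from 92.7, 91 and 75.8 CPM to 45.8, 39 and 35.7 CPM (log2 fold change -1.09, SE 0.22, adjusted P = 0.00548), and of experiment 2, from 110.0, 109 and 124 CPM to 48.3, 41.6 and 55.4 CPM (log2 fold change -1.23, SE 0.16, adjusted P = 4.34e-06). In Phase 1 it was at 73.4, 81.3 and 44.7 CPM in sgControl and 44.1, 63.5 and 54.2 CPM in sgCbfb cells, which overlap (log2 fold change -0.27, SE 0.22, adjusted P = 0.591). The overlap comes from the third sgControl library, which stood apart from its group as described below. The other sgControl libraries of Phase 1 lay above all sgCbfb libraries. *Ctcf* fell with sgCTCF (log2 fold change -0.36, SE 0.10, adjusted P = 0.021), and *Med12* did not change detectably with sgMed12 (log2 fold change 0.30, SE 0.35, adjusted P = 0.663), but edits need not lower an mRNA and a 3′ tag away from the cut does not check them. The study checked the 3 disruptions at the protein level, by immunoblot of transduced Cas9-LPs 3 days after the sgRNAs were introduced.

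The third Phase 1 sgControl library stood apart from its group, with a mean correlation of 0.888 with its 2 mates and 510 genes below 0.5 times their lower value, against at most 58 in any other library. In sgMed12 LPs, mitochondrial transcripts took 13.7%, 8.44% and 11.2% of reads, against 6.76% to 8.15% in the other libraries of experiment 2. The 5 hematopoietic progenitor markers examined (*Ptprc*, *Flt3*, *Kit*, *Il7r* and *Cd44*) were detected in every library. Of the stromal markers, *Col3a1* and *Dcn* were at 0 in every library and the sum over 6 markers was at most 25.7 CPM. That stromal sum was 0 to 1.43 CPM in sgCbfb against 0 to 1.77 CPM in sgControl LPs of experiment 1, and 2.36 to 7.78 against 0 to 0.733 CPM in Phase 1. In experiment 2 it was 0 to 16.6 CPM in sgControl, 2.02 to 13.4 CPM in sgCbfb, 10.9 to 21.2 CPM in sgCTCF and 3.78 to 25.7 CPM in sgMed12 LPs. The sum over 6 adipocyte markers was 10.7 to 14.8 CPM in sgCbfb against 3.21 to 12.4 CPM in sgControl LPs of experiment 1. It was 5.89 to 11.0 against 0 to 1.29 CPM in Phase 1, and 8.35 to 29.0 against 4.87 to 7.68 CPM in experiment 2. It was 5.29 to 7.16 CPM in sgCTCF and 2.32 to 5.08 CPM in sgMed12 LPs. *Cfd* was at 0 in every library. Against sgControl *Fabp4* alone of the 6 was called, higher with sgCbfb in Phase 1 (log2 fold change 2.72, SE 0.65, adjusted P = 0.0108) and in experiment 2 (log2 fold change 1.39, SE 0.46, adjusted P = 0.0474). The sum over 7 monocyte and macrophage markers was higher in sgCbfb cells, at 520 to 584 CPM against 68.1 to 116.9 CPM in sgControl LPs of experiment 1, 371 to 414 against 115 to 120 in Phase 1, and 733 to 826 against 75.7 to 102.5 in experiment 2. With sgCbfb 3, 3 and 4 of the 7 rose, mostly *Mrc1* and *F13a1* (means of 472 and 194 CPM against 6.23 and 6.71 CPM in sgControl of experiment 2). In Phase 1 *Ccr2* fell, from a mean of 65 to 26.8 CPM. The sum was 192 to 258 CPM in sgCTCF LPs, where *Ccr2* (mean 123 against 23.6 CPM in sgControl) and *Fcgr3* (80.9 against 38 CPM) rose and *F13a1* (2.87 CPM) fell. There *Mrc1* and *Lyz2* were at means of 3.41 and 0.231 CPM against 6.23 and 0.985 CPM. It was 114 to 130 CPM in sgMed12 LPs, where *Fcgr3* alone rose. The part of the stromal, the adipocyte and the monocyte and macrophage markers in the results was not tested, and in bulk RNA fewer cells of a type and less RNA per cell cannot be told apart.

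The enzymes of cholesterol synthesis, taken as a sum, were lower in edited than in sgControl cells in every comparison. The summed level of the 16 enzymes was 1420 ± 34.8 CPM (mean ± SD, n = 3 here and throughout) in sgControl LPs of experiment 1 and 962 ± 27.2 CPM in sgCbfb LPs, and in Phase 1 it was 1452 ± 61.8 and 1070 ± 39.6 CPM. In experiment 2 it was 983 ± 117 CPM in sgControl, 753 ± 21.8 CPM in sgCbfb, 685 ± 40.1 CPM in sgCTCF and 756 ± 54.7 CPM in sgMed12 LPs. For this sum of 16, no edited library reached the lowest sgControl library of its comparison.

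**Figure D1:**
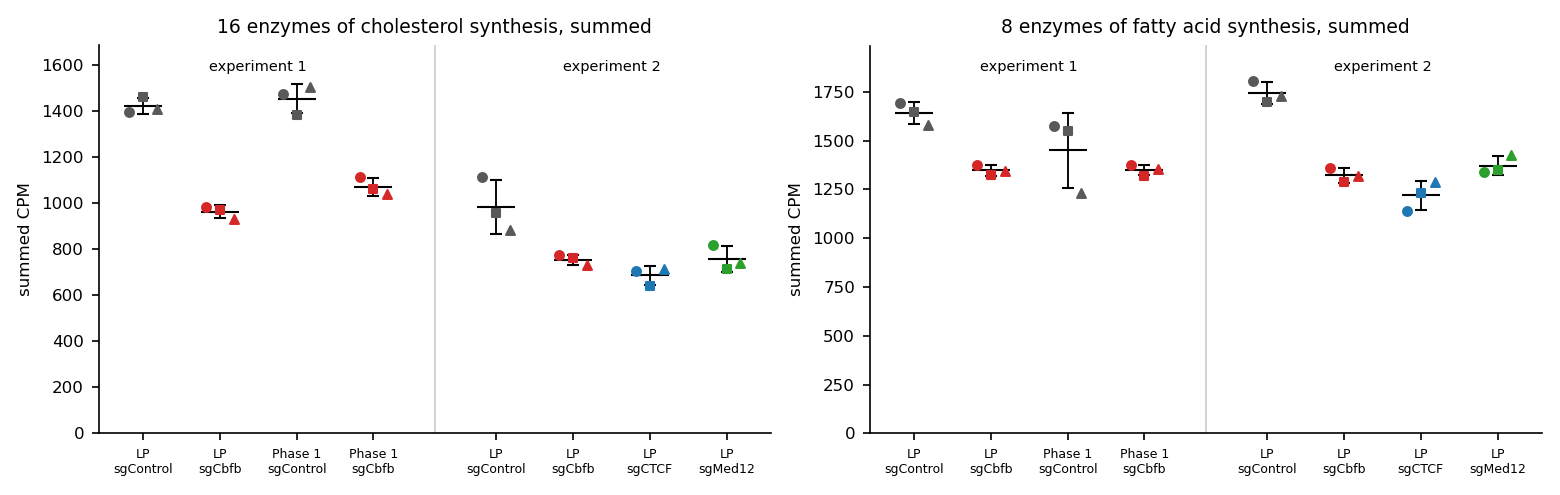
Summed CPM of the 16 enzymes of cholesterol synthesis (left) and the 8 enzymes of fatty acid synthesis (right) in every library by group, with circle, square and triangle for replicates 1, 2 and 3 and a dash and bar for the mean and SD (n = 3). Edited groups lie below their sgControl group in both panels, except for the fatty acid enzymes in Phase 1, where sgControl spans 1229 to 1573 CPM and sgCbfb 1321 to 1373 CPM.

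The 8 enzymes of fatty acid synthesis summed to 1640 ± 57.4 CPM in sgControl and 1348 ± 27.7 CPM in sgCbfb LPs of experiment 1. In experiment 2 they summed to 1745 ± 56.0 CPM in sgControl, 1322 ± 37.0 CPM in sgCbfb, 1220 ± 74.6 CPM in sgCTCF and 1372 ± 46.7 CPM in sgMed12 LPs, again without overlap. In Phase 1 the sgControl libraries ranged from 1229 to 1573 CPM, with the third library lowest, and the 3 sgCbfb libraries lay inside that range. Each sum is dominated by its most abundant members, so the genes are given one by one below.

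The first question was how loss of *Cbfb* changed these genes in LPs and after Notch stimulation. In LPs of experiment 1, 4 of the 32 genes fell with sgCbfb and none rose, against 2.85% of all tested genes called in either direction and 1.09% called lower. The 4 were *Fads2*, *Hmgcs1*, *Cyp51* and *Dhcr7*. The median log2 fold change of the 32 genes was -0.38, against 0.00 over all genes, and 25 of the 32 point estimates were below 0. All 3 sgCbfb libraries were below all 3 sgControl libraries for 16 of the 32, against 8.35% of all genes, and above them for 2, against 9.11%. The count rests in part on one library of another group, since the groups share one variance estimate. Without the third Phase 1 sgControl library 7 of the 32 fell (*Fdps*, *Acat2* and *Scap* in addition), with 5.02% of all genes called, and without the first LP sgCbfb library 2 fell.

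In Phase 1 cells, *Hmgcs1*, *Acat2* and *Pmvk* fell with sgCbfb and *Abca1* rose, 4 of 32 against 5.97% of all genes called in either direction, and 3 against 2.60% called lower. The median of the 32 was -0.18 against 0.06 over all genes, with 20 point estimates below 0. The sgCbfb libraries were all below the sgControl libraries for 9 genes (9.28% of all genes) and all above for 4 (11.7%). Without the third Phase 1 sgControl library *Hmgcs1* and *Fads2* fell and *Abca1* rose, with 6.32% of all genes called, and *Acat2* and *Pmvk* missed the threshold (adjusted P = 0.164 and 0.0754). With all libraries, these 2 calls were each lost under 4 alternatives (adjusted P up to 0.119 and 0.0917). Leaving out any one of the 3 Phase 1 sgCbfb libraries left 1 gene.

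In LPs of experiment 2, which has its own sgControl libraries and more reads, 9 genes fell with sgCbfb and 1 rose, 10 of 32 against 12.5% of all genes called in either direction and 9 against 5.57% called lower. *Fads2*, *Scap*, *Lss*, *Scd2*, *Acat2*, *Hmgcs1*, *Fasn*, *Cyp51* and *Mvk* fell, and *Abcg1* rose. The median was -0.23 against -0.01 over all genes, and 26 point estimates were below 0. Libraries of the groups were fully separated for 12 genes below sgControl, against 15.0% of all genes, and for 2 above, against 15.5%. Without the first sgControl library 6 of the 32 passed.

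The second question was how deletion of *Ctcf* or *Med12* changed these genes. These 3 comparisons share the sgControl libraries of experiment 2, so each is given by its own values. With sgCTCF, 11 genes fell and 1 rose, 12 of 32 against 10.3% of all genes called in either direction and 11 against 4.20% called lower. *Scd2*, *Hmgcs1*, *Fads2*, *Stard4*, *Scd1*, *Cyp51*, *Acaca*, *Fdps*, *Fads1*, *Dhcr7* and *Sqle* fell, and *Abca1* rose. The median was -0.39 against -0.02 over all genes, 28 point estimates were below 0, and 20 genes lay wholly below sgControl (15.1% of all genes) and 2 wholly above (16.0%). With sgMed12, 6 genes fell and none rose, against 7.22% of all genes called in either direction and 4.70% called lower. *Hmgcs1*, *Fads2*, *Scd2*, *Srebf2*, *Cyp51* and *Nsdhl* fell. The median was -0.26 against -0.02 over all genes, 25 point estimates were below 0, and 13 genes lay wholly below sgControl (11.9%) and 1 wholly above (9.33%). Without the second sgMed12 library 9 of the 32 fell and 1 rose, with 21.6% of all genes called, and without the first or the third, or without the first sgControl library, 3 passed. With mitochondrial genes left out of the library totals, 5 passed.

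Over the 5 comparisons with sgControl, 19 genes fell in at least one and 2, *Abca1* and *Abcg1*, rose in at least one. The other 11 passed in none, namely *Mvd*, *Idi1*, *Fdft1*, *Msmo1*, *Hsd17b7* and *Sc5d* among the cholesterol enzymes, *Srebf1*, *Insig1* and *Insig2* among the regulators, and *Acly* and *Elovl6* among the fatty acid enzymes. Single comparisons called 1.09% to 5.57% of all tested genes lower. The share of all genes called in at least one was not computed, so these counts have no background here. By the thresholds of the study's methods, which add an absolute log2 ratio of the mean values above 1 and a mean above 10 in either group, *Lss* with sgCbfb in experiment 2 and *Scd1* with sgCTCF remained and no other member in these comparisons. Those thresholds called 1.69% and 3.52% of all tested genes in LPs and Phase 1 cells of experiment 1, and 4.33%, 2.43% and 1.03% with sgCbfb, sgCTCF and sgMed12 in experiment 2.

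**Figure D2:**
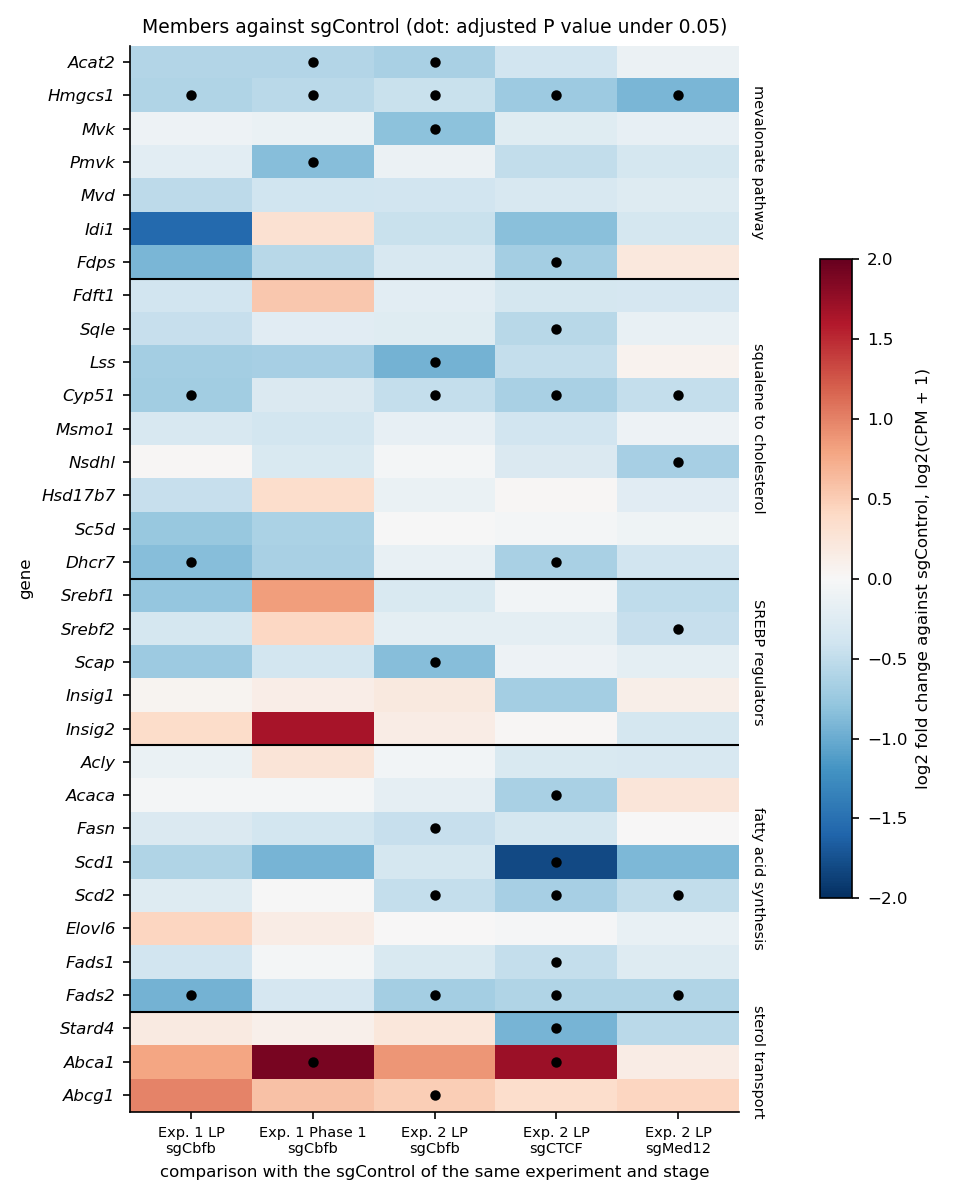
Log2 fold change on the log2(CPM + 1) scale of each of the 32 genes (rows, grouped by role) in the 5 comparisons with sgControl (columns), with blue for lower and red for higher values in edited cells and a black dot where the adjusted P value was below 0.05. *Hmgcs1* has a dot in all 5 columns, *Fads2* and *Cyp51* in the 4 LP columns, and the calls of higher expression are *Abca1* in 2 columns and *Abcg1* in 1.

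The mevalonate pathway opens with *Acat2*, which joins acetyl-CoA units, and *Hmgcs1* (ENSMUSG00000093930, chr13:119690379-119708260, plus strand), the synthase that makes HMG-CoA. *Hmgcs1* was at 507, 403 and 424 CPM in sgControl LPs of experiment 1 and at 296, 307 and 270.5 CPM in sgCbfb LPs (log2 fold change -0.61, SE 0.12, adjusted P = 0.00332). In Phase 1 it was at 504, 425 and 429 CPM in sgControl and 320.3, 308 and 302 CPM in sgCbfb cells (log2 fold change -0.54, SE 0.12, adjusted P = 0.00539). Every sgCbfb library of either stage was thus below every sgControl library. In experiment 2 it was at 295, 279 and 221 CPM in sgControl LPs and 179.8, 208 and 189.7 CPM in sgCbfb LPs (log2 fold change -0.45, SE 0.11, adjusted P = 0.00688). It was at 164, 148 and 162 CPM in sgCTCF LPs (log2 fold change -0.73, SE 0.11, adjusted P = 8.14e-05) and 136, 152 and 131 CPM in sgMed12 LPs (log2 fold change -0.91, SE 0.11, adjusted P = 5.96e-05). No library of an edited group overlapped sgControl, and *Hmgcs1* was lower in sgMed12 than in sgCbfb LPs (log2 fold change -0.46, SE 0.11, adjusted P = 0.00531). It was one of the 3 genes with the CACCCCA core in its promoter window.

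*Acat2* was at 106, 143 and 149 CPM in sgControl and 92.4, 89.5 and 79.2 CPM in sgCbfb LPs of experiment 1 (log2 fold change -0.59, SE 0.17, adjusted P = 0.0777), and at 112, 106 and 155 CPM and 88.2, 77.9 and 77.8 CPM in Phase 1 (log2 fold change -0.59, SE 0.17, adjusted P = 0.0461). In LPs of experiment 2 it was at 136, 106 and 104 CPM in sgControl and 88.2, 61.7 and 71.3 CPM in sgCbfb LPs (log2 fold change -0.64, SE 0.14, adjusted P = 0.0015). These groups were separated in all 3 comparisons. With sgCTCF and sgMed12 its log2 fold changes were -0.39 (adjusted P = 0.0739) and -0.12 (adjusted P = 0.647), and it was higher in sgMed12 than in sgCbfb LPs by 0.52 (adjusted P = 0.0083) on the log2 scale.

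Of the mevalonate kinases, *Mvk* fell with sgCbfb in experiment 2, from 18.7, 17.1 and 17.8 CPM to 7.15, 12.1 and 10.3 CPM (log2 fold change -0.83, SE 0.25, adjusted P = 0.0261), and was at a log2 fold change of -0.11 with sgCbfb in LPs of experiment 1. The call of *Mvk* was lost under 2 alternatives and in 4 fits that left out one library. *Pmvk*, the next kinase, was at 39.5, 52.3 and 49.9 CPM in sgControl and 21.4, 25.8 and 30.1 CPM in sgCbfb Phase 1 cells (log2 fold change -0.85, SE 0.25, adjusted P = 0.0488), and at a log2 fold change of -0.21 and -0.12 in the sgCbfb comparisons of LPs. *Fdps*, which makes farnesyl diphosphate, was at 44.6, 32.8 and 31.4 CPM in sgControl and 25.8, 18.7 and 22 CPM in sgCTCF LPs (log2 fold change -0.68, SE 0.18, adjusted P = 0.012), with no overlap. With sgCbfb it was at a log2 fold change of -0.92 (adjusted P = 0.0568) in LPs of experiment 1 and -0.32 (adjusted P = 0.289) in experiment 2. *Mvd*, the decarboxylase, ranged from a log2 fold change of -0.52 to -0.25 over the 5 comparisons and passed in none. *Idi1*, the isomerase, was low, with 0 to 13 CPM over the libraries, and its estimates on the log2 scale, from -1.55 to 0.30, passed in no comparison.

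Among the enzymes from squalene to cholesterol, *Cyp51* (ENSMUSG00000001467, chr5:4081145-4104746, minus strand), the lanosterol demethylase, fell with all LP deletions. It was at 178, 194 and 207 CPM in sgControl and 108, 132 and 116 CPM in sgCbfb LPs of experiment 1 (log2 fold change -0.70, SE 0.15, adjusted P = 0.00682), without overlap. In Phase 1 it was at 204, 185 and 238 CPM and 199.7, 164 and 148 CPM, which overlap (log2 fold change -0.30, SE 0.15, adjusted P = 0.296). In experiment 2 it was at 152, 131 and 124 CPM in sgControl, 96.6, 96.3 and 99 CPM in sgCbfb, 102, 69.6 and 89.7 CPM in sgCTCF and 97.2, 85.4 and 108 CPM in sgMed12 LPs, and all edited libraries lay below sgControl. The log2 fold changes were -0.47 (SE 0.13, adjusted P = 0.017), -0.64 (SE 0.13, adjusted P = 0.00184) and -0.48 (SE 0.13, adjusted P = 0.0293). The sgCTCF call held under all alternatives and omissions of a library. The sgMed12 call was lost under 4 alternatives (adjusted P up to 0.144) and in 5 fits that left out one library. The sgCbfb calls were lost under 1 alternative each, and in 1 and 3 such fits in experiments 1 and 2. An exon of *Cyp51* overlaps *Akap9* on the opposite strand by 166 bases, and the strand setting of the counting is not given in the sources used here. *Akap9* was at a log2 fold change of 0.11 in LPs of experiment 1 and 0.02, -0.08 and 0.02 in the comparisons of experiment 2, none of which passed.

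*Lss* (ENSMUSG00000033105, chr10:76531588-76557138, plus strand), which closes the sterol rings, was at 23.5, 25.1 and 22.4 CPM in sgControl and 11.9, 12.1 and 11.3 CPM in sgCbfb LPs of experiment 2 (log2 fold change -0.95, SE 0.19, adjusted P = 0.000984), about the same in each of the 3 sgCbfb libraries and well below sgControl. It was at 16.4, 18.4 and 15.7 CPM in sgCTCF LPs (log2 fold change -0.47, SE 0.19, adjusted P = 0.134) and 28.5, 27 and 20.2 CPM in sgMed12 LPs (log2 fold change 0.08, SE 0.19, adjusted P = 0.861). In experiment 1 its log2 fold change with sgCbfb in LPs was -0.68 (SE 0.36, adjusted P = 0.494). *Dhcr7*, which catalyses the last step of one branch, fell with sgCbfb in LPs of experiment 1, from 52.9 ± 5.42 to 29 ± 2.74 CPM (log2 fold change -0.85, SE 0.22, adjusted P = 0.0378), and with sgCTCF, from 38.3 ± 5.15 to 23.9 ± 1.44 CPM (log2 fold change -0.65, SE 0.18, adjusted P = 0.0218), but was at a log2 fold change of -0.15 (adjusted P = 0.707) with sgCbfb in experiment 2. *Sqle*, the squalene epoxidase, fell with sgCTCF (log2 fold change -0.55, SE 0.16, adjusted P = 0.0303), and *Nsdhl*, a C4 demethylation enzyme, with sgMed12 (log2 fold change -0.66, SE 0.19, adjusted P = 0.0335). These calls of *Sqle* and *Nsdhl* were lost under 2 and 3 alternatives and in 4 and 5 fits that left out one library. Those of *Dhcr7* were lost in 7 such fits in experiment 1 and in 5 with sgCTCF. *Fdft1*, whose exons overlap those of *Ctsb* on the opposite strand, *Msmo1*, *Hsd17b7* and *Sc5d* passed in none of the comparisons, with log2 fold changes from -0.76 (*Sc5d*, sgCbfb LPs of experiment 1) to 0.54 (*Fdft1*, sgCbfb Phase 1).

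**Figure D3:**
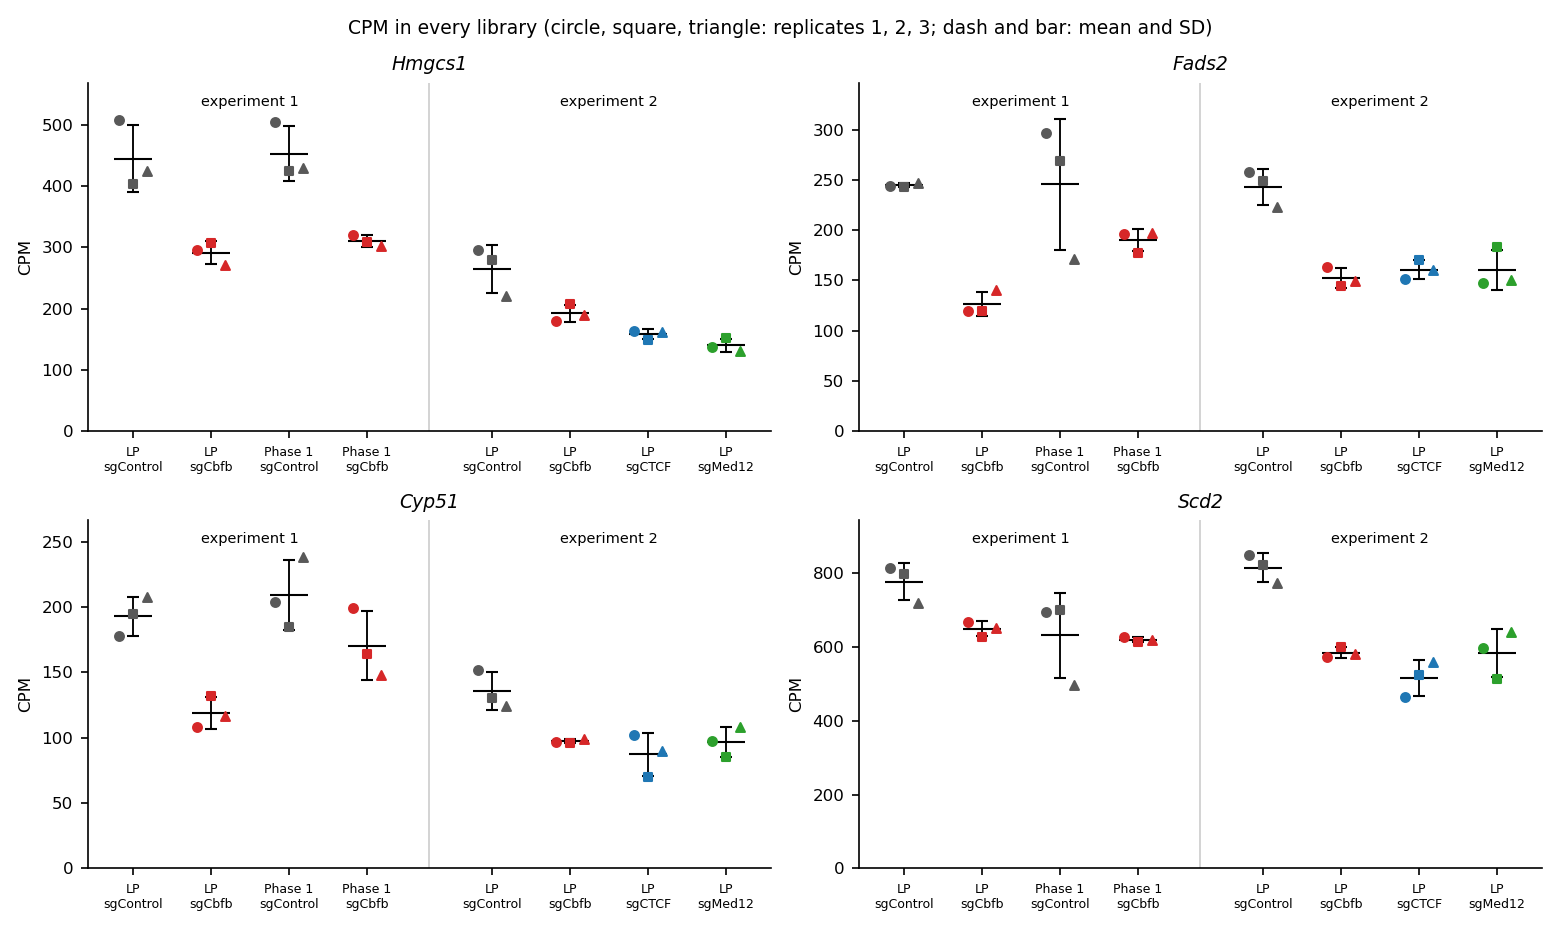
CPM of *Hmgcs1*, *Fads2*, *Cyp51* and *Scd2* in every library by group, with circle, square and triangle for replicates 1, 2 and 3 and a dash and bar for the mean and SD (n = 3). For *Hmgcs1* all edited libraries lie below their sgControl libraries, for *Fads2* and *Cyp51* this holds in LPs but not in Phase 1, and *Scd2* is lower mainly in experiment 2.

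Among the genes of fatty acid desaturation, *Fads2* fell in the 4 comparisons of edited with sgControl LPs. *Fads2* (ENSMUSG00000024665, chr19:10062765-10101746, minus strand), the delta-6 desaturase, was at 244, 243 and 247 CPM in sgControl and 119, 119 and 141 CPM in sgCbfb LPs of experiment 1 (log2 fold change -0.95, SE 0.16, adjusted P = 0.000819). In experiment 2 it was at 258, 249 and 223 CPM in sgControl and 164, 144 and 149 CPM in sgCbfb LPs (log2 fold change -0.67, SE 0.11, adjusted P = 5.90e-05). It was at 151, 170.1 and 160.4 CPM in sgCTCF (log2 fold change -0.60, SE 0.11, adjusted P = 0.000535) and 147, 183 and 151 CPM in sgMed12 LPs (log2 fold change -0.60, SE 0.11, adjusted P = 0.00217). The highest edited library was below the lowest sgControl library in each case. In Phase 1 it was at 296, 268 and 172 CPM in sgControl and 196, 177 and 197 CPM in sgCbfb cells (log2 fold change -0.33, SE 0.16, adjusted P = 0.285), where the third sgControl library, which stood apart, was below all sgCbfb libraries and the other 2 were above them. Its neighbour *Fads1*, 81.1 kb away on chromosome 19, encodes the delta-5 desaturase and fell with sgCTCF (log2 fold change -0.48, SE 0.13, adjusted P = 0.0137).

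*Scd1* and *Scd2*, 87.6 kb apart on chromosome 19, encode stearoyl-CoA desaturases, which make monounsaturated fatty acids. *Scd2* (ENSMUSG00000025203, chr19:44293674-44306864, plus strand) was at 850.3, 823 and 773 CPM in sgControl LPs of experiment 2 and 574, 600.4 and 582 CPM in sgCbfb (log2 fold change -0.48, SE 0.10, adjusted P = 0.00137), 464, 525 and 559 CPM in sgCTCF (log2 fold change -0.66, SE 0.10, adjusted P = 6.20e-05) and 597, 513 and 641 CPM in sgMed12 LPs (log2 fold change -0.49, SE 0.10, adjusted P = 0.00627), again without overlap with sgControl. In experiment 1 it was at 815, 799 and 720.0 CPM in sgControl and 668, 628 and 653 CPM in sgCbfb LPs (log2 fold change -0.26, SE 0.12, adjusted P = 0.379), and at 696, 701 and 498 CPM and 627, 615 and 618 CPM in Phase 1 (log2 fold change -0.01, SE 0.12, adjusted P = 0.983). So the sgCbfb libraries of experiment 1 were below sgControl in LPs by a smaller margin than the test required, and inside the sgControl range in Phase 1.

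*Scd1* fell with sgCTCF, at 2.15, 7.80 and 4.62 CPM against 19.8, 17.7 and 16.3 CPM in sgControl LPs (log2 fold change -1.81, SE 0.34, adjusted P = 0.000712), a call lost under 1 alternative (adjusted P = 0.0511). With sgCbfb it was at 16.4, 13.4 and 11.8 CPM (log2 fold change -0.36, SE 0.34, adjusted P = 0.59) and with sgMed12 at 13.6, 4.65 and 11.6 CPM (log2 fold change -0.90, SE 0.34, adjusted P = 0.103), the second sgMed12 library being the lowest. In experiment 1 it was at 26, 13 and 24.4 CPM in sgControl and 20.5, 9.18 and 11.4 CPM in sgCbfb LPs, and at 28.2, 18.7 and 22.7 CPM and 16.9, 8.17 and 11.2 CPM in Phase 1, with log2 fold changes of -0.61 (adjusted P = 0.63) and -0.93 (adjusted P = 0.202). *Scd1* was lower in sgCTCF than in sgCbfb LPs (log2 fold change -1.46, SE 0.34, adjusted P = 0.00226).

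Of the enzymes of de novo synthesis, *Acaca* and *Fasn* each fell in one comparison with sgControl. *Acaca*, the acetyl-CoA carboxylase that commits carbon to fatty acids, was at 35.3, 37.5 and 42.1 CPM in sgControl and 22.3, 25.3 and 24.7 CPM in sgCTCF LPs (log2 fold change -0.65, SE 0.16, adjusted P = 0.00795), and at 46.1, 38.9 and 52.5 CPM in sgMed12 LPs (log2 fold change 0.25, SE 0.16, adjusted P = 0.363). *Fasn*, the fatty acid synthase, fell with sgCbfb in experiment 2, from 264 ± 32.3 to 193 ± 31.5 CPM (log2 fold change -0.46, SE 0.12, adjusted P = 0.00943), and was at a log2 fold change of -0.29 (adjusted P = 0.379) with sgCbfb in LPs of experiment 1 and at 0.01 (adjusted P = 0.98) with sgMed12. *Acly*, which supplies cytosolic acetyl-CoA, ranged from a log2 fold change of -0.32 to 0.25 and passed in no comparison. *Elovl6*, an elongase, passed in none of the comparisons with sgControl either, with log2 fold changes of 0.42 in sgCbfb LPs of experiment 1 and 0.01 in those of experiment 2.

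Of the 5 regulators, *Scap* fell with sgCbfb in experiment 2 and *Srebf2* with sgMed12, and the other 3 passed in no comparison with sgControl. *Srebf2*, which encodes SREBP-2, fell with sgMed12, from 226, 203 and 197 CPM to 141, 161 and 153 CPM (log2 fold change -0.46, SE 0.11, adjusted P = 0.012). The call was lost under 2 alternatives and in 3 fits that left out one library. With sgCbfb *Srebf2* was at 159.8, 195 and 189.7 CPM (log2 fold change -0.20, SE 0.11, adjusted P = 0.247) and with sgCTCF at 182, 189 and 178 CPM (log2 fold change -0.19, SE 0.11, adjusted P = 0.306), below every sgControl library but with the changes short of the threshold. In experiment 1 it was at 203, 243 and 248 CPM in sgControl and 161, 194 and 188 CPM in sgCbfb LPs (log2 fold change -0.35, SE 0.29, adjusted P = 0.746), and at 212, 234 and 65.3 CPM and 218, 181 and 198 CPM in Phase 1 (log2 fold change 0.42, SE 0.29, adjusted P = 0.485). The low value in Phase 1 is from the library that stood apart, and without it the log2 fold change was -0.16 (adjusted P = 0.63) instead of 0.42.

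*Srebf1*, which encodes SREBP-1, was at 46.6, 19.8 and 37.3 CPM in sgControl and 19, 22.9 and 15 CPM in sgCbfb LPs of experiment 1 (log2 fold change -0.77, SE 0.66, adjusted P = 0.764). In Phase 1 it was at 28.2, 20.6 and 0.733 CPM and 16.9, 16.3 and 19.4 CPM (log2 fold change 0.84, SE 0.66, adjusted P = 0.559), where the third sgControl library held almost none and its omission turned the log2 fold change to -0.44 (adjusted P = 0.61). It was, in experiment 2, at 36.7, 31.6 and 42.4 CPM in sgControl, 22.4, 36.2 and 31.7 CPM in sgCbfb, 28.7, 37 and 40.9 CPM in sgCTCF and 26.6, 26.4 and 23.8 CPM in sgMed12 LPs. The groups overlapped for sgCbfb and sgCTCF, and the sgMed12 libraries were all lower, with log2 fold changes of -0.30 (adjusted P = 0.349), -0.06 (adjusted P = 0.903) and -0.50 (adjusted P = 0.0947). Exons of *Srebf1* overlap *Rai1* on the opposite strand by 109 bases.

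*Scap* (ENSMUSG00000032485, chr9:110333288-110384950, plus strand), the SREBP escort, was at 63.8, 55.5 and 66 CPM in sgControl and 36.7, 29.8 and 35 CPM in sgCbfb LPs of experiment 2 (log2 fold change -0.85, SE 0.16, adjusted P = 0.00032), with all sgCbfb libraries well below. It was at 46.7, 62.1 and 64.5 CPM in sgCTCF (log2 fold change -0.11, SE 0.16, adjusted P = 0.759) and 43.2, 61 and 58.2 CPM in sgMed12 LPs (log2 fold change -0.20, SE 0.16, adjusted P = 0.479), which overlapped sgControl. In LPs of experiment 1 it was at 68.5, 56.3 and 71.9 CPM in sgControl and 33.2, 47.6 and 37.1 CPM in sgCbfb (log2 fold change -0.73, SE 0.24, adjusted P = 0.131), separated but short of the threshold, and in Phase 1 at 62.8, 54.2 and 33.7 CPM and 31.8, 40.2 and 41.8 CPM (log2 fold change -0.36, SE 0.24, adjusted P = 0.471).

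*Insig1*, the sterol-sensing retention protein and itself an SREBP target, was at 41.4, 28.4 and 24.8 CPM in sgControl, 30.1, 46.1 and 32 CPM in sgCbfb, 15.6, 19.5 and 21.7 CPM in sgCTCF and 46.3, 22.7 and 35.8 CPM in sgMed12 LPs. The sgCTCF libraries were all below sgControl, at a log2 fold change of -0.69 (adjusted P = 0.0575), and the other 2 groups overlapped it, at 0.20 (adjusted P = 0.681) and 0.12 (adjusted P = 0.807). In experiment 1 it was at 31.3, 27.2 and 13.5 CPM in sgControl and 21.9, 27.5 and 21.4 CPM in sgCbfb LPs, and 12.7, 22.6 and 18.3 CPM and 14.9, 18.9 and 24.8 CPM in Phase 1, overlapping in both, with log2 fold changes of 0.05 (adjusted P = 0.987) and 0.13 (adjusted P = 0.902). Its relative *Insig2* passed in none of the 5 comparisons.

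**Figure D4:**
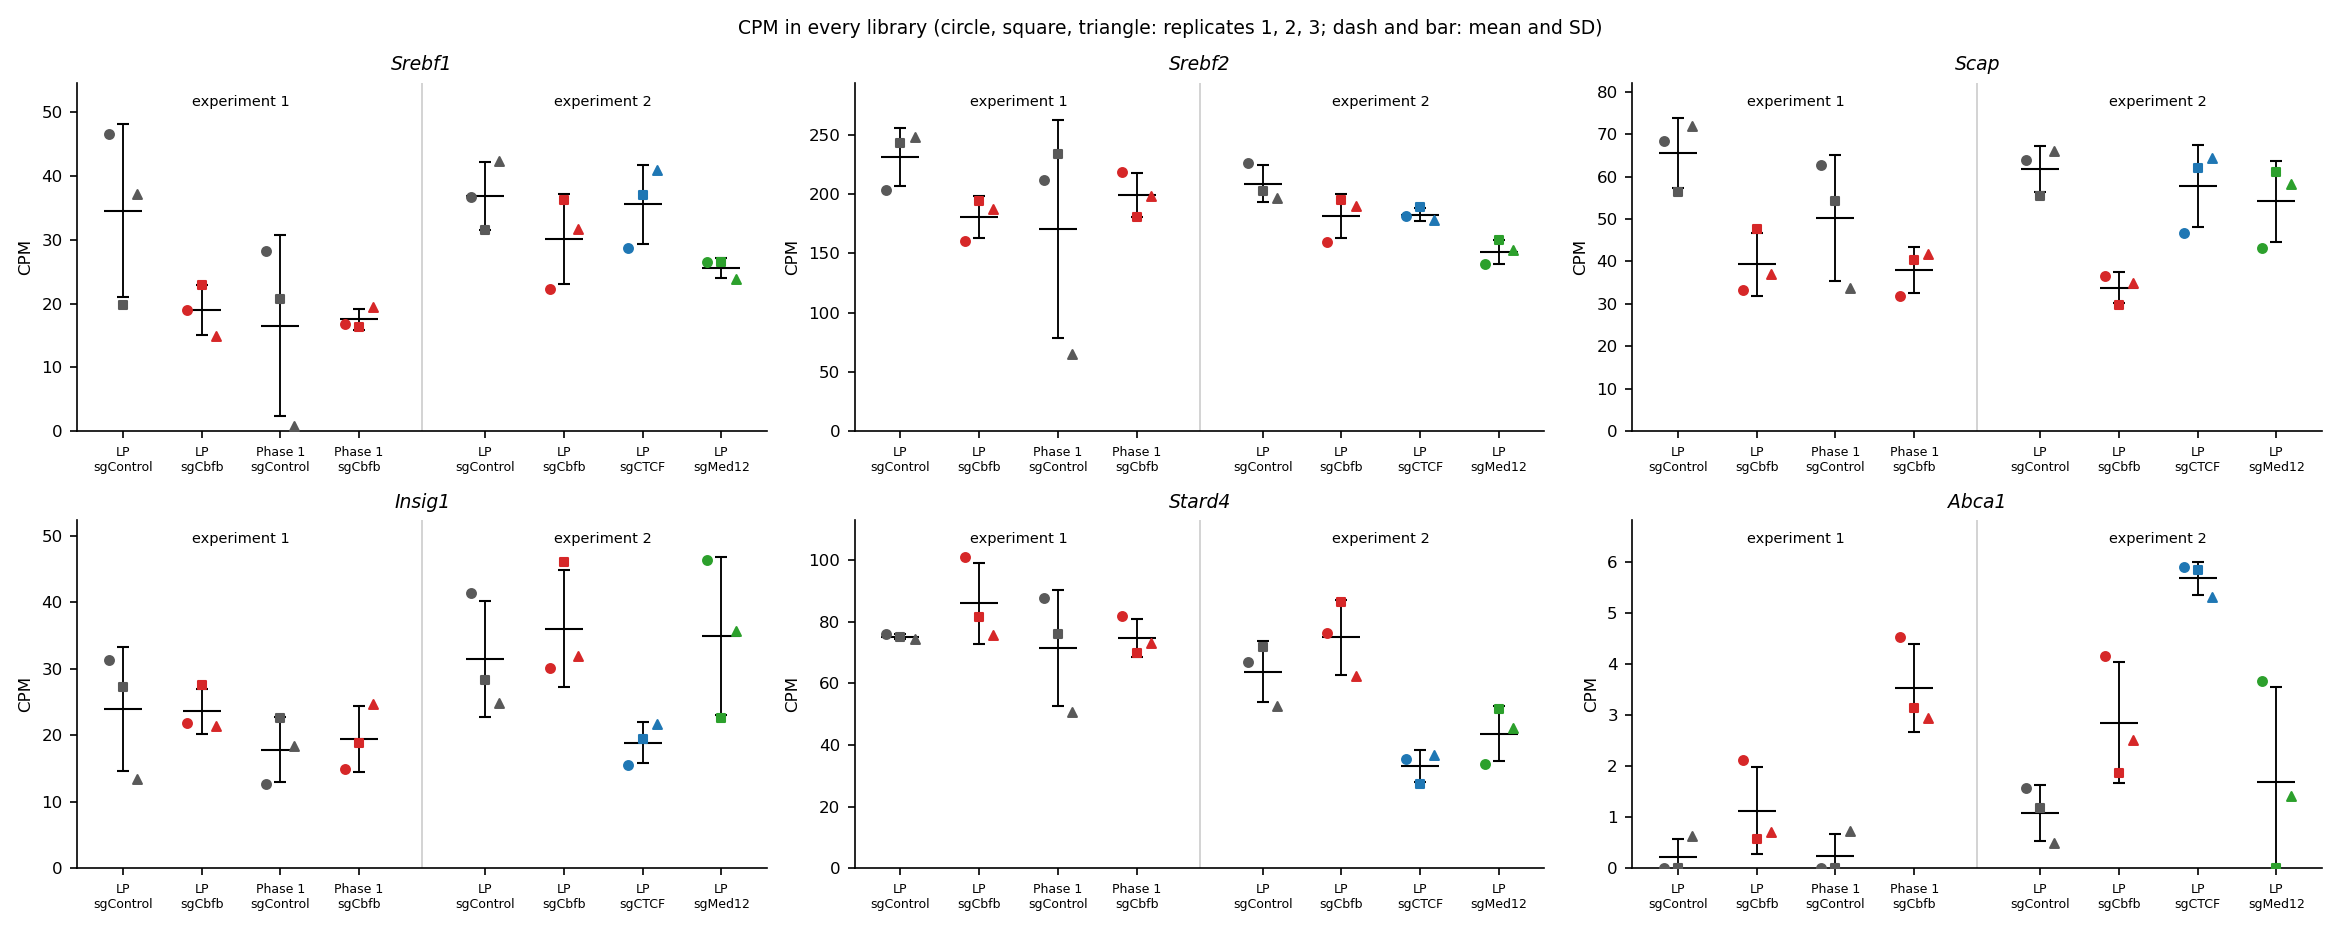
CPM of *Srebf1*, *Srebf2*, *Scap*, *Insig1*, *Stard4* and *Abca1* in every library by group, with circle, square and triangle for replicates 1, 2 and 3 and a dash and bar for the mean and SD (n = 3, axis from 0). *Scap* is low in sgCbfb LPs of experiment 2, *Stard4* is below every sgControl library in sgCTCF and sgMed12 LPs but not in sgCbfb LPs, and the third Phase 1 sgControl library is low for *Srebf1* and *Srebf2*.

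Sterol transport differed by gene. *Stard4*, a cytosolic sterol carrier and SREBP target, was at 67, 71.8 and 52.6 CPM in sgControl and 35.4, 27.3 and 36.7 CPM in sgCTCF LPs (log2 fold change -0.92, SE 0.17, adjusted P = 0.000617), and at 33.9, 51.7 and 45.4 CPM in sgMed12 LPs (log2 fold change -0.54, SE 0.17, adjusted P = 0.0509). With sgCbfb it was at 76.3, 86.3 and 62.2 CPM in experiment 2 (log2 fold change 0.23, SE 0.17, adjusted P = 0.465), and in experiment 1 at 76.1, 74.9 and 74.5 CPM in sgControl and 101, 81.5 and 75.6 CPM in sgCbfb LPs (log2 fold change 0.18, SE 0.19, adjusted P = 0.83). The sgCbfb and sgControl libraries overlapped in both experiments.

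*Abca1* and *Abcg1*, which export cholesterol and are induced by liver X receptors, were the members that rose. *Abca1* (ENSMUSG00000015243, chr4:53030787-53159895, minus strand) was close to the detection limit, at 0, 0 and 0.733 CPM in sgControl and 4.54, 3.14 and 2.95 CPM in sgCbfb Phase 1 cells (log2 fold change 1.90, SE 0.53, adjusted P = 0.0319). Those values are 1 and 17 reads over the 3 libraries, a ratio of 15.2 with a 95% exact interval of 2.39 to 637 that covers counting error only. In LPs of experiment 1 it was at 0, 0 and 0.642 CPM in sgControl and 2.12, 0.573 and 0.713 CPM in sgCbfb, 1 and 5 reads. In experiment 2 it was at 1.58, 1.18 and 0.487 CPM in sgControl and 5.90, 5.85 and 5.32 CPM in sgCTCF LPs (log2 fold change 1.72, SE 0.43, adjusted P = 0.00954), 12 and 66 reads with a ratio of 5.33 and an interval of 2.86 to 10.8. With sgCbfb it was at 4.17, 1.88 and 2.52 CPM (log2 fold change 0.88, SE 0.43, adjusted P = 0.211) and with sgMed12 at 3.67, 0 and 1.42 CPM (log2 fold change 0.14, SE 0.43, adjusted P = 0.884). The call in Phase 1 was lost by edgeR on the recovered reads (adjusted P = 0.19), and both calls were lost with a pseudocount of 0.1 (adjusted P = 0.080 and 0.091).

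*Abcg1* rose with sgCbfb in experiment 2, from 23.7, 36.9 and 32.6 CPM to 43.5, 46.7 and 40.3 CPM without overlap (log2 fold change 0.49, SE 0.16, adjusted P = 0.0442), and was at a log2 fold change of 0.99 (adjusted P = 0.234) with sgCbfb in LPs of experiment 1. The call was lost under 3 alternatives with all libraries (adjusted P up to 0.0900) and in 9 fits that left out one library, with an adjusted P of 0.29 without the first sgControl library. Macrophages express both pumps. The summed monocyte and macrophage markers given above were higher than sgControl in every comparison, but by different genes. In sgCbfb LPs of experiment 1 and in sgMed12 LPs neither pump was called, but *Abcg1* lay above every sgControl library. It was at 33.5 to 56.4 against 11.6 to 33.4 CPM in the first and 38.4 to 46.9 against 23.7 to 36.9 CPM in the second. In sgCTCF LPs it was at 38.4 to 40.1 CPM, also above sgControl. In Phase 1 it was at 15.6 to 39.0 CPM with sgCbfb and 15.4 to 23.2 CPM in sgControl, which overlap. In sgCbfb cells *Mrc1*, *F13a1* and *Fcgr3* rose, as did *Lyz2* in experiment 2, while *Ccr2* fell in Phase 1. With sgCTCF, 2 of the 7 rose (*Ccr2* and *Fcgr3*), *F13a1* fell and *Mrc1* and *Lyz2* had log2 fold changes of -0.67 (adjusted P = 0.124) and -0.70 (adjusted P = 0.286). The part of these markers, and of the stromal markers given above, in the change of *Abca1* and *Abcg1* was not tested.

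The sgCbfb comparison of LPs was made in both experiments with separate sgControl libraries. Of the 32 genes, 25 had log2 fold changes below 0 in both experiments, 6 were above 0 in both and 1 had opposite signs, against 33.8% of the 12639 genes tested in both that were below 0 in both. Among the 16 enzymes of cholesterol synthesis 15 were below 0 in both, the exception being *Nsdhl* at a log2 fold change of 0.03 and -0.04. The 6 above 0 in both were *Abca1*, *Abcg1*, *Stard4*, *Insig1*, *Insig2* and *Elovl6*. *Fads2*, *Hmgcs1* and *Cyp51* fell in both. The sgCbfb cells of Phase 1 and the sgCbfb LPs of experiment 2 also have separate controls, and there 20 of the 32 were below 0 in both, against 26.6% of all genes.

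**Figure D5:**
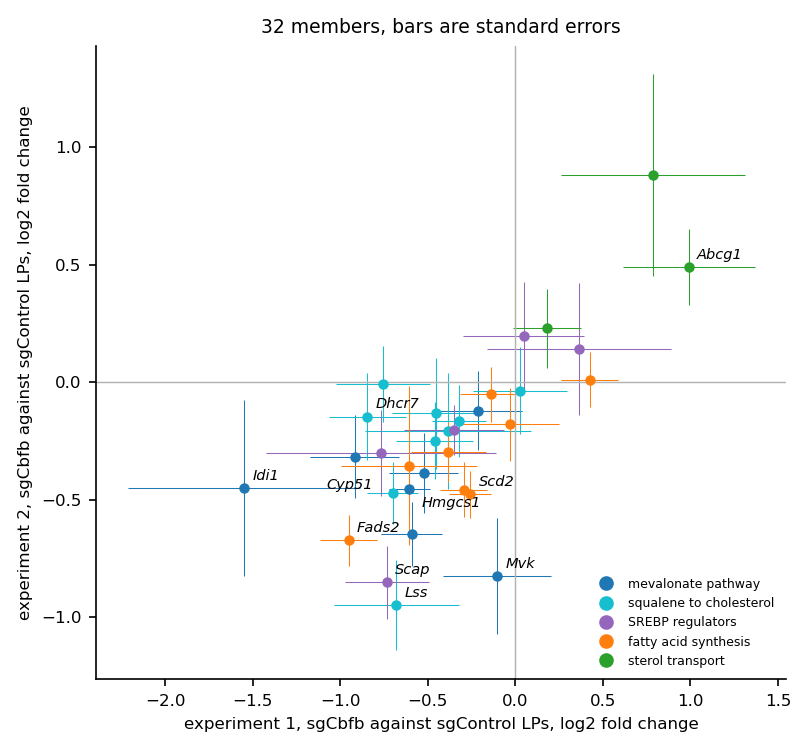
Log2 fold change of sgCbfb against sgControl LPs on the log2(CPM + 1) scale in experiment 1 (x axis) and experiment 2 (y axis) for the 32 genes, coloured by role, with bars for the standard error. Of the 32 points 25 lie in the lower left quadrant and the 3 sterol transport genes lie in the upper right.

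Notch stimulation was compared between Phase 1 cells and LPs of experiment 1. In sgControl cells none of the 32 genes passed, against 6.48% of all genes called in either direction. At an unadjusted P below 0.05 there were 7, without a share over all genes beside them, and edgeR on the recovered reads called 0. Leaving out the first or the second Phase 1 sgControl library left 2 and 1 genes. In sgCbfb cells 1 gene passed, against 2.24% of all genes. This was *Elovl6*, which fell from 154, 138 and 132 CPM in LPs to 77.2, 76 and 104 CPM in Phase 1 cells (log2 fold change -0.73, SE 0.17, adjusted P = 0.0167), with no overlap. In sgControl cells it was at 121, 92.3 and 103 CPM and 71.3, 80.0 and 79.2 CPM (log2 fold change -0.45, SE 0.17, adjusted P = 0.121). Without the third Phase 1 sgControl library, *Fads2*, *Cyp51* and *Fdps* rose in sgCbfb cells as well (log2 fold changes 0.59, 0.51 and 0.82). The difference between the sgCbfb effects in Phase 1 and in LPs was tested as an interaction. It passed for none of the 32, against 1.27% of all genes, and for 0 by edgeR. At an unadjusted P below 0.05 there were 2, again without a share over all genes. The smallest P value was for *Fads2*, at a log2 fold change of 0.62 (SE 0.23, adjusted P = 0.281).

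The deletions of experiment 2 were also compared with one another. Between sgCTCF and sgCbfb LPs, 5 genes were lower and 1 higher with sgCTCF, against 22.3% of all genes called in either direction. On the log2 scale *Stard4* was lower at -1.15 (SE 0.17, adjusted P = 1.14e-05), *Scd1* at -1.46 (SE 0.34, adjusted P = 0.00226), *Insig1* at -0.88 (SE 0.23, adjusted P = 0.00588), *Acaca* at -0.47 (SE 0.16, adjusted P = 0.0338) and *Dhcr7* at -0.51 (SE 0.18, adjusted P = 0.0497), and *Scap* was higher at 0.75 (SE 0.16, adjusted P = 0.00085). The share of members that passed, 6 of 32, was close to that over all genes. For *Hmgcs1* and *Fads2* the log2 fold changes were -0.28 (SE 0.11, adjusted P = 0.0807) and 0.08 (SE 0.11, adjusted P = 0.677). The call of *Dhcr7* was lost under 7 alternatives with all libraries (adjusted P up to 0.120) and in 9 fits that left out one library (up to 0.149).

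Between sgMed12 and sgCTCF LPs, 5 genes were higher and 1 lower with sgMed12, against 20.0% of all genes. The share of members that passed, 6 of 32, was close to that over all genes. *Acaca* was higher at a log2 fold change of 0.89 (SE 0.16, adjusted P = 0.000278), *Fdps* at 0.90 (SE 0.18, adjusted P = 0.000792), *Insig1* at 0.81 (SE 0.23, adjusted P = 0.0149), *Fasn* at 0.35 (SE 0.12, adjusted P = 0.0369) and *Lss* at 0.55 (SE 0.19, adjusted P = 0.0471), and *Abca1* was lower at -1.57 (SE 0.43, adjusted P = 0.011). The calls of *Acaca* and *Fdps* held under all alternatives and omissions of a library. That of *Lss* was lost under 2 alternatives (adjusted P up to 0.0812) and in 9 fits that left out one library (up to 0.178). Those of *Insig1*, *Fasn* and *Abca1* were also lost under some of each. Between sgMed12 and sgCbfb LPs, 5 were higher and 3 lower with sgMed12, against 16.8% of all genes. *Lss* at a log2 fold change of 1.02 (SE 0.19, adjusted P = 0.000407), *Scap* at 0.65 (SE 0.16, adjusted P = 0.00441), *Fasn* at 0.46 (SE 0.12, adjusted P = 0.00704), *Acat2* at 0.52 (SE 0.14, adjusted P = 0.0083) and *Fdps* at 0.53 (SE 0.18, adjusted P = 0.0369) were higher. *Stard4* at a log2 fold change of -0.77 (SE 0.17, adjusted P = 0.00197), *Hmgcs1* at -0.46 (SE 0.11, adjusted P = 0.00531) and *Nsdhl* at -0.62 (SE 0.19, adjusted P = 0.0209) were lower. The calls of *Lss*, *Scap*, *Stard4* and *Hmgcs1* held throughout. Those of *Fasn*, *Acat2*, *Fdps* and *Nsdhl* were lost under some alternatives and some omissions of a library. *Fdps* was at 32.2, 26.8 and 27 CPM in sgCbfb and 46.1, 36 and 44 CPM in sgMed12 LPs, beside the sgControl and sgCTCF values above. With mitochondrial genes left out of the library totals, 6 and 10 of the 32 passed in these comparisons with sgCTCF and sgCbfb, in place of 6 and 8.

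A further 26 genes of the same pathways were examined, of which 23 passed the filter on low values and 3 (*Nr1h3*, *Acacb* and *Me1*) did not. With sgCbfb in LPs of experiment 1 limma called none of them, against 2.85% of all genes, and edgeR on the recovered reads called 0. At an unadjusted P below 0.05 there were 4, without a share over all genes beside them. With sgCbfb in experiment 2, 2 of the 23 fell and 1 rose, against 12.5% of all genes called in either direction and 5.57% called lower. *Slc25a1*, the mitochondrial citrate carrier, fell with a log2 fold change of -0.47 (SE 0.14, adjusted P = 0.0224) and *Npc2*, a lysosomal cholesterol carrier, at -0.42 (SE 0.11, adjusted P = 0.00688). *Lbr*, a sterol reductase that also anchors chromatin at the nuclear lamina, rose from 416, 392 and 432 CPM to 549, 640.4 and 579 CPM (log2 fold change 0.51, SE 0.10, adjusted P = 0.00043). With sgCTCF 3 fell and 1 rose, against 10.3% called in either direction and 4.20% called lower. *Slc25a1* at a log2 fold change of -0.77 (SE 0.14, adjusted P = 0.000405) and the acyl-CoA synthetases *Acsl3* at -0.61 (SE 0.13, adjusted P = 0.00214) and *Acsl4* at -0.52 (SE 0.14, adjusted P = 0.0205) fell, and *Npc2* rose at 0.47 (SE 0.11, adjusted P = 0.0038).

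With sgMed12 3 of the 23 fell and none rose, against 7.22% of all genes called in either direction and 4.70% called lower. The 3 were *Lbr* at a log2 fold change of -0.45 (SE 0.10, adjusted P = 0.00835), *Acat1*, the mitochondrial thiolase, at -0.53 (SE 0.13, adjusted P = 0.0181) and *Acsl4* at -0.52 (SE 0.14, adjusted P = 0.0321). *Lbr* was at 287, 332 and 291 CPM there, below all sgControl libraries, whereas in sgCbfb LPs it was above them. Without the second sgMed12 library 6 fell (*Mid1ip1*, *Soat1* and *Elovl5* in addition).

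In Phase 1 with sgCbfb 1 of the 23 rose and 1 fell, against 5.97% of all genes called in either direction. *Acat1* was at 86.8, 99.4 and 40.3 CPM in sgControl and 131, 125 and 123 CPM in sgCbfb Phase 1 cells (log2 fold change 0.83, SE 0.23, adjusted P = 0.0355). The lowest value is that of the third sgControl library, which stood apart. Without that library the call was lost (log2 fold change 0.44, SE 0.17, adjusted P = 0.119). The elongase *Elovl5* fell, from 162, 136 and 95.4 CPM to 74.6, 88 and 76 CPM (log2 fold change -0.69, SE 0.20, adjusted P = 0.0447), and also did so without that library (log2 fold change -0.90, SE 0.19, adjusted P = 0.00055). *Lbr* was then the gene that rose (log2 fold change 0.40, SE 0.11, adjusted P = 0.0213). With Notch stimulation of sgControl cells 2 of the 23 fell, against 6.48% of all genes called in either direction. One was *Acat1*, which was at 141, 129 and 121 CPM in sgControl LPs (log2 fold change -0.88, SE 0.23, adjusted P = 0.025). The other was *Mid1ip1*, a regulator of acetyl-CoA carboxylase, at 34.8, 31.6 and 30.2 CPM in LPs and 18.4, 16.1 and 10.3 CPM in Phase 1 (log2 fold change -1.09, SE 0.29, adjusted P = 0.0239). Both calls were lost without the same library, with adjusted P values of 0.0702 and 0.0733. *Elovl5* alone then passed, higher in Phase 1 (log2 fold change 0.75, SE 0.19, adjusted P = 0.00498).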

How the data were processed

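RNA of sorted cells was made into QuantSeq 3′ FWD libraries by the authors and sequenced as single reads. Per the labels, fastp and STAR were used with the mm10 build, and the counting strand is not given in the sources used here. The deposited values, one table per experiment and 24 sample columns in all, are named TPM by the authors but are counts scaled to a common total (CPM) without a length correction: dividing by the smallest step of each library gave whole reads, within 0.05 reads, for at least 99.9% of values in experiment 1 and 99.7% in experiment 2. The recovered reads gave the depths and the edgeR alternative. Chi-square comparison of replicates found no duplicated library.

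Groups were taken from the labels, and tests stayed within a table. limma (3.58.1, R 4.3.3) with a variance trend was fitted to log2(CPM + 1) of genes that reached 1 CPM in 3 or more libraries, all 12 libraries of an experiment in one fit, with Benjamini-Hochberg adjustment over all tested genes and a threshold of 0.05. The interaction was (sgCbfb minus sgControl in Phase 1) minus the same in LPs. The test was checked on simulated data in which all genes and libraries had the same extra spread and no gene of low level was changed. That check does not cover a library that stands apart or genes near the detection limit. Named genes were all members by counts and ranges, and by library the 3 members with the smallest adjusted P value among those that passed in each comparison plus *Srebf1*, *Srebf2*, *Insig1*, *Hmgcs1*, *Scd1* and *Scd2*; values of other members were added to show the calls. One gene of the further pathway genes is not reported here. The members and lists were chosen with earlier results of these data known. Replicates are numbered in the labels, and P values measure the spread between these libraries. Alternatives were other pseudocounts (0.1 and 5 CPM), scalings, filters and fits, edgeR (4.0.16) quasi-likelihood, a replicate block, and leaving out each library. Promoter windows came from a RefSeq table (GRCm38.p6) and gene positions and exon overlaps from GENCODE on GRCm38.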

Additional observations from a re-analysis of the deposited data

How the results depend on the processing

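Each of the 57 calls of a gene in a comparison was recomputed under every alternative. Of 1251 values, 1065 stayed on the same side of the threshold, 186 lost the call and 0 changed direction, and 23 calls held under all alternatives and omissions of a library. Some losses of calls against sgControl are not given above. That of *Scd2* with sgMed12 was lost under 2 alternatives. Those of *Fasn* with sgCbfb in experiment 2 and *Fdps* with sgCTCF were each lost under 1 alternative and in 2 fits that left out one library. Those of *Hmgcs1* with sgCbfb in experiment 2, and of *Acaca* and *Fads1* with sgCTCF, were lost in 1, 1 and 3 such fits. The number of genes called, in the order LP sgCbfb in experiment 1, Phase 1 sgCbfb, Notch stimulation in sgControl and in sgCbfb cells, the interaction, then sgCbfb, sgCTCF and sgMed12 in experiment 2, then sgCTCF against sgCbfb, sgMed12 against sgCTCF and sgMed12 against sgCbfb, was 4, 4, 0, 1, 0, 10, 12, 6, 6, 6 and 8.

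Fitting only the compared groups gave 8 genes for sgCbfb in LPs of experiment 1, 1 in Phase 1, 4 for Notch stimulation in sgCbfb cells and 2 for sgMed12. Without moderated variances there were 2 in Phase 1, 1 and 0 for Notch stimulation in sgControl and sgCbfb cells, 6, 7 and 2 for sgCbfb, sgCTCF and sgMed12 in experiment 2, and 3 and 4 for sgMed12 against sgCTCF and against sgCbfb. Without a filter on low values there were 2 in Phase 1 and 3 for sgMed12 against sgCTCF, and with a pseudocount of 0.1 there was 1 in Phase 1. Median-of-ratios scaling and edgeR gave 2 each for Notch stimulation in sgCbfb cells. The cause was not tested. Where a fit is given without the share of all genes called, its count does not show a change particular to these genes. The same holds above and below.

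Leaving out each library in turn gave, in the order above, 2 to 7, 1 to 4, 0 to 2, 0 to 4, 0 to 0, 6 to 10, 8 to 18, 3 to 10, 4 to 8, 3 to 9 and 5 to 12 genes. Beside the omissions already given, 2 genes passed in Phase 1 without the third LP sgControl, second Phase 1 sgControl, or first or second LP sgCbfb library. For Notch stimulation in sgCbfb cells the count was 4 without the third Phase 1 sgControl library, 2 without the first, and 0 without the first or second library of either sgCbfb group. It was 3 for sgMed12 against sgCTCF without the first sgCTCF library, and 5 for sgMed12 against sgCbfb without the second sgCbfb library.

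With the replicate number as a block the counts were 5, 4, 0, 1, 0, 10, 13, 6, 6, 6 and 8. Deviations of libraries with the same number correlated at -0.04 to 0.14 in experiment 1 and -0.13 to 0.22 in experiment 2, over 0.1 in 2 and 6 of 18 pairs, so the numbers were not taken to pair the libraries. Leaving mitochondrial genes out of the totals, an alternative chosen after seeing the data, gave 4, 4, 0, 1, 0, 10, 12, 5, 5, 6 and 10. In experiment 1, genes under 1.72 to 2.20 CPM rest on fewer than 3 reads a library, and *Abca1* is among them in LPs and in sgControl Phase 1 cells.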
